A study of Mus musculus with 10 samples.

Results

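The 9 genes described here mark retinal bipolar cells, the interneurons that carry the photoreceptor signal from the outer to the inner retina. They are Vsx1, Isl1, Bhlhe23, Sebox, Cabp5, Scgn, Grik1, Neto1 and Car8, taken by symbol from the 36115 genes of the deposited count table, and all 9 were found. They were compared between retinas of untreated 3-month-old mice, 5 wild-type libraries (W1 to W5) and 5 libraries with the genotype label B6.129S2-Il6tm1Kopf/J (K1 to K5), a line in which the gene of the cytokine interleukin-6 is disrupted in every cell. Both groups carry the label C57BL/6 for the background, the labels give no litter, sex or batch, and the numbers 1 to 5 only name the libraries. The genotype label of K1 to K5 names a separate line, so any other inherited difference between the lines would follow that label. Such differences cannot be separated from genotype with these libraries, and their part in the levels was not tested. Whether each library is a different animal is not stated in the labels, and p-values therefore reflect only the variation among these 10 libraries, part of which may be technical.

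Bipolar cells divide into rod bipolar cells and many types of cone bipolar cell. ON types invert the glutamate signal through the metabotropic receptor mGluR6, and OFF types keep its sign through ionotropic receptors, among them kainate receptors. Transcription factors set these identities during development: Vsx1, a paired-like homeodomain factor, acts in late cone bipolar differentiation, Isl1, a LIM homeodomain factor, in ON bipolar cells, and Bhlhe23, a basic helix-loop-helix factor, in rod bipolar maturation. Sebox, another homeobox gene, and Car8, a carbonic anhydrase relative without enzyme activity, are rod bipolar markers. Cabp5 and Scgn (secretagogin) encode EF-hand proteins, which bind calcium, and differ in the bipolar types that hold them. Grik1 encodes the kainate receptor subunit GluK1, and Neto1 an auxiliary subunit of kainate receptors. Several of these genes are not confined to bipolar cells: Isl1 is also known from ganglion cells and cholinergic amacrine cells.

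The levels of 7 of the 9 bipolar genes differed between the groups by at most 0.10 on the log2 scale. The other two, Cabp5 and Neto1, stood 25.7% and 27.4% lower in the libraries labelled knockout without passing the main test. Of the 9 genes, edgeR's quasi-likelihood test called 0 higher and 0 lower at a Benjamini-Hochberg adjusted p under 0.05 over all tested genes. It called 2.03% of the 18965 tested genes, 0.859% higher and 1.17% lower. DESeq2 called Cabp5 and Neto1 lower (2 of the 9, against 2.05% of its tested genes) and limma-voom called neither (against 0.923%). At an unadjusted edgeR p under 0.05 there were 2 of the 9, again Cabp5 and Neto1, against 13.8% of all tested genes. In bulk tissue, fewer cells of a type and less RNA per cell cannot be told apart.

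Promoter sequences were available for 6 of the 9 genes, and not for Neto1, Grik1 and Car8. They came from RefSeq on GRCm38.p6, each covering 250 bases before to 50 bases after the RefSeq start. A set of 3 short motifs were searched on both strands: TAATCC, the core bound by the photoreceptor and bipolar homeodomain factors CRX and OTX2; TAATTA, a core bound by other homeodomain factors; and TTCNNNGAA, the palindrome of STAT factors, among which STAT3 acts downstream of interleukin-6. TAATCC was found in the windows of Cabp5 and Isl1 (2 of 6, against 7.06% of 32851 promoter windows), TTCNNNGAA in that of Scgn (1 of 6, against 8.30%), and TAATTA in 0 of 6 (against 5.29%). The 3 windows with a match are printed 5′ to 3′ on the gene's strand, with the matches in capitals. These windows set Cabp5, which had the lowest p of the 9, beside a gene with the same motif. The third is from the only gene of the 6 searched with a STAT motif. The 3 windows are chr7:13397905-13398204 (plus strand) for Cabp5, chr13:116309639-116309938 (minus strand) for Isl1 and chr13:23991165-23991464 (minus strand) for Scgn.
Cabp5: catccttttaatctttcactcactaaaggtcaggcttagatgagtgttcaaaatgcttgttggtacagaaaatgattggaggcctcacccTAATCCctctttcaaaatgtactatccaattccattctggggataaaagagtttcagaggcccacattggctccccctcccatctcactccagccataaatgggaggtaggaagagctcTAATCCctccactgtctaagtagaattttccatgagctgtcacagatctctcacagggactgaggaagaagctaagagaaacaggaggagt
Isl1: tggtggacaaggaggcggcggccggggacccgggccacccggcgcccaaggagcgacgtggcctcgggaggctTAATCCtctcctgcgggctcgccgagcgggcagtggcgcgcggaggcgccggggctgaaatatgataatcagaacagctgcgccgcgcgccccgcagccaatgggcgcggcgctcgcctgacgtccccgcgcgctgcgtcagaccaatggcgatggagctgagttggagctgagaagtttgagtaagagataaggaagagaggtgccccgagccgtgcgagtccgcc
Scgn: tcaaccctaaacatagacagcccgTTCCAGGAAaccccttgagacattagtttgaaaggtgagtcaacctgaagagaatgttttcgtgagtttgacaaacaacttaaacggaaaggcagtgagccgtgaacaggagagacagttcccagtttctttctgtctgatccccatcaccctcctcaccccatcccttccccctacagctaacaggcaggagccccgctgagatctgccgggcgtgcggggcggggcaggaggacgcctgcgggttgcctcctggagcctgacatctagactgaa
The first bases of the Cabp5 matches lie 160 and 41 bases before the start, that of the Isl1 match 177 bases and that of the Scgn match 226 bases before it. No match overlapped another. A match is a run of letters and was not tested as a binding site.

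The libraries held 30433373 to 38857374 counts. Levels are CPM, a gene's reads scaled to a common library total, with edgeR's TMM factors to correct for differences in library composition. As a check of the tissue label, wild-type libraries held 12713.4 ± 1590.2 CPM (SD, n = 5) of the rod transducin gene Gnat1, while the 5 lens markers in the table summed to at most 0.555 CPM in any library. The 6 pigment epithelium markers differed widely between libraries, with sums of 50.7 to 404.1 CPM in wild type and 177.7 to 331.8 CPM in K1 to K5. The part of this tissue in the levels below was not tested. Il6 itself went against the labels. Its counts were 0, 0, 1, 1 and 1 for the wild-type libraries and 3, 3, 5, 7 and 4 for K1 to K5 (exact two-sided permutation p = 0.00794 on log2(CPM + 1), the smallest that 5 against 5 libraries allow). A gene-level count does not separate the disrupted part of Il6 from the rest, so directions are given for the libraries as labelled.

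**Figure D1:**
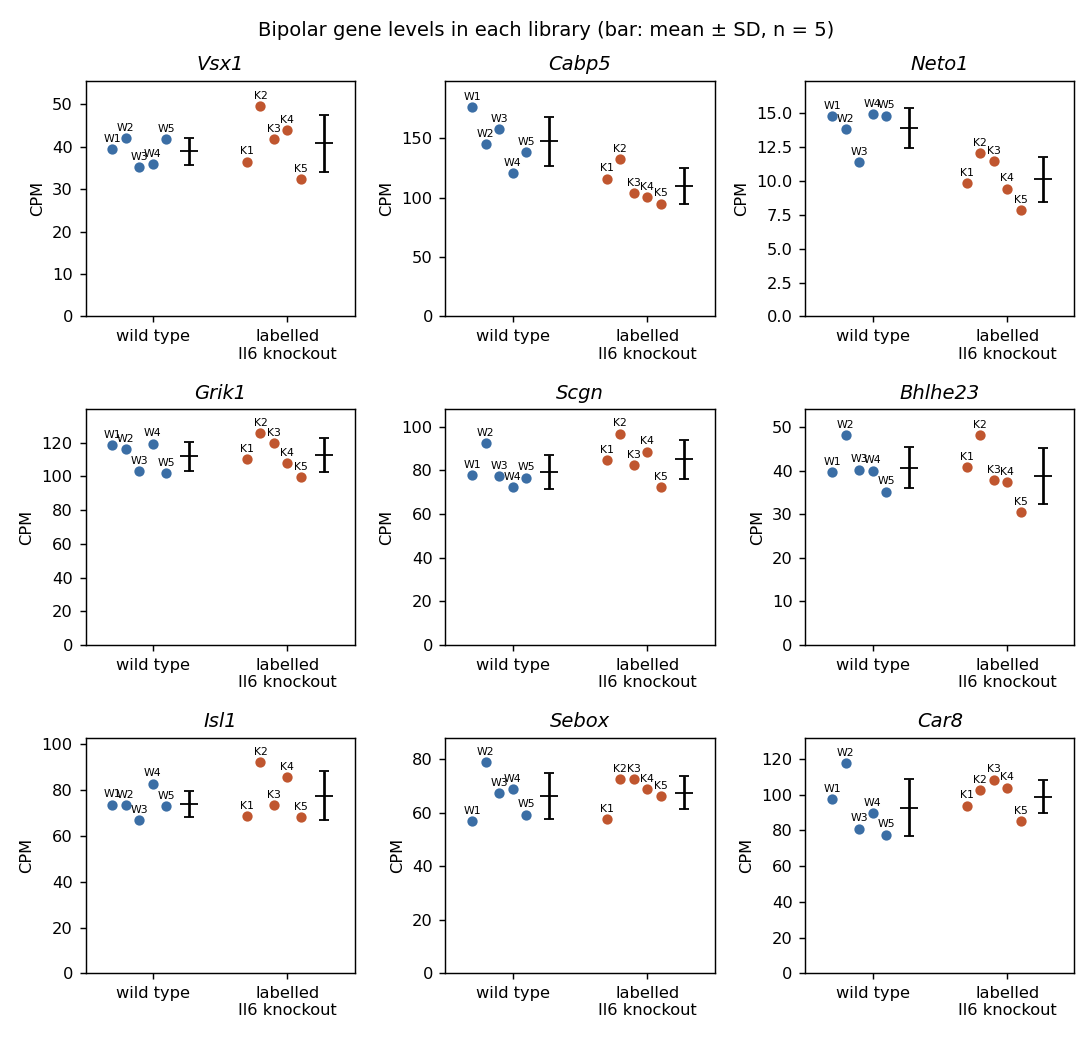
Level of each of the 9 bipolar genes in every library, in CPM on linear axes that start at 0. Points are libraries, wild type in blue and labelled Il6 knockout in orange, and bars give mean ± SD (n = 5). In Cabp5 and Neto1 most orange points lie under the blue ones (4 and 3 of 5 lie under the lowest wild-type library), and in the other 7 panels the groups share the same range.

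Cabp5, a calmodulin-like protein of rod bipolar cells and some cone bipolar types, had the lowest p of the 9 genes (ENSMUSG00000005649.17, chromosome 7, 13398132 to 13408887, GRCm38). It stood at 176.1, 145.1, 157.4, 120.4 and 138.6 CPM in W1 to W5, and at 116.1, 132.6, 104.0, 100.5 and 95.01 CPM in K1 to K5. All 5 libraries labelled knockout lay under the wild-type mean and 4 lay under the lowest wild-type library, W4, while K2 lay above W4, so the groups overlapped. The means were 147.5 ± 20.8 and 109.6 ± 15.0 CPM (SD, n = 5), and the log2 fold change was -0.43 ± 0.11 (SE), with a 95% interval from -0.65 to -0.20 and an edgeR adjusted p of 0.0506. On the linear scale this is a level 25.7% lower, with an interval of the ratio from 0.636 to 0.869.

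Which side of the threshold Cabp5 fell on depended on the tool and on single libraries. DESeq2 gave it an adjusted p of 0.00726, limma-voom 0.0547, and edgeR without a low-count filter 0.00674, a setting that called 1.12% of tested genes lower. In the authors' deposited table, its adjusted p was 0.00975 with a log2 fold change of -0.38, where 1.87% of the genes with an adjusted p were lower at a value under 0.05. The authors' mark of significance, whose smallest absolute log2 fold change is 1.01, was given to 0 of the 9 genes and to 47 of all 36115 (0.13%), so the 0 says nothing particular to the 9. Leaving out W2, W4 or K2 brought the edgeR adjusted p to 0.0491, 0.0211 and 0.0225, and leaving out K4 brought it to 0.153, with the log2 fold change between -0.51 and -0.36 over all alternatives.

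Neto1, the kainate receptor auxiliary subunit, was the least abundant of the 9 genes (ENSMUSG00000050321.2, chromosome 18, 86394952 to 86501897), with 267 to 598 reads in a library. It stood at 14.7, 13.8, 11.4, 14.9 and 14.8 CPM in W1 to W5, and at 9.80, 12.02, 11.5, 9.42 and 7.84 CPM in K1 to K5. In wild type 4 libraries lay above every library labelled knockout, and W3 alone lay among them, under K2 and K3. The means were 13.9 ± 1.49 and 10.1 ± 1.68 CPM (SD, n = 5), with a log2 fold change of -0.46 ± 0.12 (SE), a 95% interval from -0.72 to -0.20 and an edgeR adjusted p of 0.0722. DESeq2 gave 0.0135, limma-voom 0.0720 and edgeR without a low-count filter 0.0339, and in the authors' deposited table it was 0.0137 with a log2 fold change of -0.39. Without W3 the edgeR adjusted p was 0.0468, and without W5 and K5 together it was 0.271.

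The 4 transcription factor genes did not pass the test. Isl1 (chromosome 13, 116298281 to 116309689) ranged from 66.8 to 82.8 CPM over the wild-type libraries and from 68.3 to 92.2 CPM over K1 to K5, and 3 of the 5 latter lay under the wild-type mean. Vsx1 (chromosome 2, 150680702 to 150689360) ranged from 35.3 to 42.0 and from 32.3 to 49.6 CPM, so its lowest and its highest library were both labelled knockout. On the log2 scale Isl1 differed by 0.07 ± 0.09 and Vsx1 by 0.07 ± 0.10 (SE, n = 5; edgeR adjusted p 0.797 and 0.823). Bhlhe23 (chromosome 2, 180774381 to 180776900) ranged from 35.2 to 48.2 and from 30.5 to 48.3 CPM, and Sebox (chromosome 11, 78503447 to 78505081) from 56.9 to 78.8 and from 57.5 to 72.6 CPM. Bhlhe23 differed by -0.06 ± 0.11 and Sebox by 0.03 ± 0.09 on the same scale (edgeR adjusted p 0.854 and 0.934).

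The remaining EF-hand, kainate receptor and enzyme-like genes also did not pass. Scgn (chromosome 13, 23953456 to 23991214) ranged from 72.3 to 92.4 CPM over the wild-type libraries and from 72.2 to 96.8 CPM over K1 to K5, a log2 fold change of 0.10 ± 0.08 (edgeR adjusted p = 0.665). The highest wild-type value was that of W2, and the next was 78.0 CPM. Grik1 (chromosome 16, 87895901 to 88290258) had the value nearest to 0, with 102.1 to 119.5 CPM against 99.8 to 125.7 CPM and a log2 fold change of 0.01 ± 0.08 (edgeR adjusted p = 0.974). Car8 (chromosome 4, 8143362 to 8239041) ranged from 77.6 to 117.6 and from 85.2 to 108.3 CPM, with 0.09 ± 0.10 (edgeR adjusted p = 0.765). For the 7 genes other than Cabp5 and Neto1, the 95% intervals of the ratio of labelled knockout to wild type ran from 0.815 (the lower end for Bhlhe23) to 1.24 (the upper end for Car8), so larger differences than these lie outside the intervals.

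**Figure D2:**
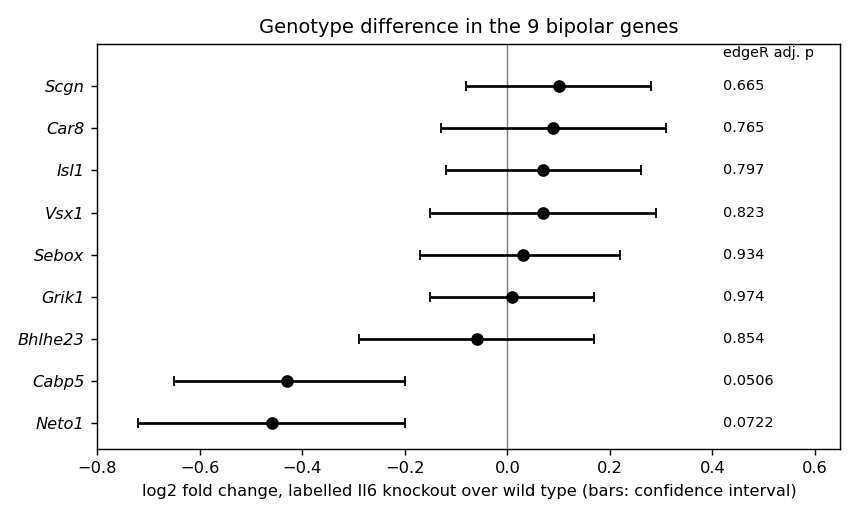
Log2 fold change of each bipolar gene, libraries labelled knockout over wild type, with its 95% interval from the edgeR fit and the edgeR adjusted p at the right (n = 5 against 5). The intervals of Cabp5 (-0.65 to -0.20) and Neto1 (-0.72 to -0.20) lie under 0, and the other 7 span 0.

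Read density, the CPM per kilobase of annotated exon, allows levels to be compared between genes. In wild type the order of this density was Cabp5 (58.4 ± 8.25 CPM per kb, SD, n = 5), Scgn (49.0 ± 4.71), Sebox (48.7 ± 6.39), Car8 (24.0 ± 4.15), Isl1 (18.7 ± 1.44), Grik1 (16.7 ± 1.28), Bhlhe23 (16.2 ± 1.85), Vsx1 (10.3 ± 0.839) and Neto1 (1.67 ± 0.178). The ranges over the wild-type libraries overlapped between each neighbouring pair from Cabp5 to Sebox and from Car8 to Bhlhe23, and did not overlap at the steps from Sebox to Car8, from Bhlhe23 to Vsx1 and from Vsx1 to Neto1. In the libraries labelled knockout Cabp5 stood at 43.4 ± 5.94 CPM per kb, after Scgn at 52.5 ± 5.55 and Sebox at 49.7 ± 4.58, and the order of the other genes was as in wild type. The density takes all annotated exons of a gene as its length and does not know which isoforms were present.

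Part of the spread within groups was shared among the 9 genes. K2 was the highest library for 5 of the 9 genes, Vsx1, Grik1, Scgn, Bhlhe23 and Isl1, and K5 the lowest for 6, Vsx1, Cabp5, Neto1, Grik1, Scgn and Bhlhe23. How often K2 was highest or K5 lowest among all tested genes was not counted. Whether this order is particular to the 9 genes was therefore not tested. In K2 all 7 genes other than Cabp5 and Neto1 lay above their mean over the 10 libraries, with a median deviation of 0.24 on the log2 scale, and in K5 0 of the 7 did, with a median of -0.17. Among wild-type libraries W2 was the highest for Sebox and Car8, and 6 of the 7 lay above their mean there. K5 differs from the other libraries in its second index sequence, per the labels. Its part in these levels was not tested beyond leaving it out, which gave Cabp5 a log2 fold change of -0.38 (edgeR adjusted p = 0.136) and Neto1 -0.38 (0.163).

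**Figure D3:**
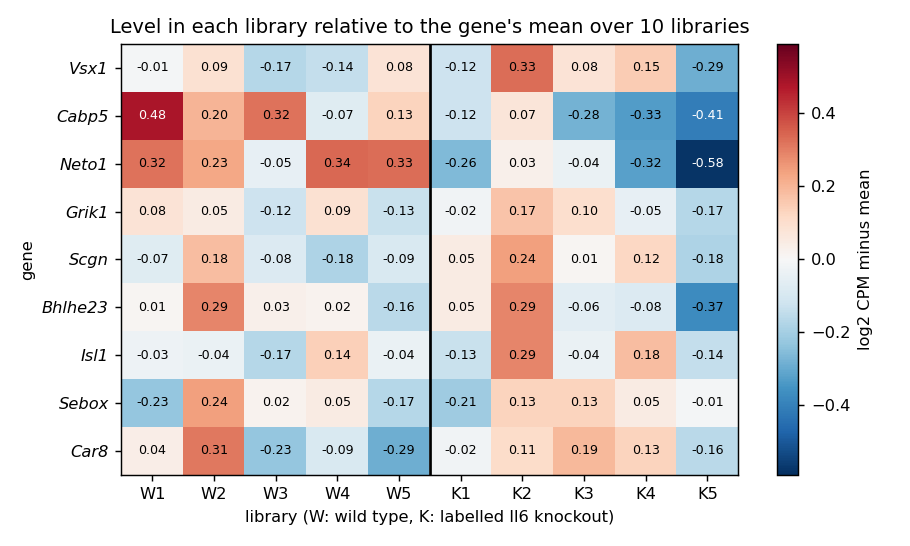
Deviation of each bipolar gene (rows) in each library (columns) from the gene's mean log2 CPM over the 10 libraries, with the value printed in each cell. The black line parts wild type from the libraries labelled knockout. Column K2 is above the mean in every row and column K5 below it in every row. The rows of Cabp5 and Neto1 run from 0.48 (W1) and 0.34 (W4) at their highest to -0.41 and -0.58 in K5.

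Because the summed level of the other 7 genes differed between libraries, Cabp5 and Neto1 were also set against that sum, a measure chosen after the values were seen and given without a test. The sum was 503.7 ± 41.0 CPM over the wild-type libraries and 521.4 ± 50.4 CPM over K1 to K5 (SD, n = 5). Relative to it, Cabp5 stood at 34.9%, 25.5%, 33.4%, 23.7% and 29.7% in W1 to W5, and at 23.6%, 22.6%, 19.4%, 18.7% and 20.9% in K1 to K5. Neto1 stood at 2.92%, 2.42%, 2.42%, 2.93% and 3.18% in W1 to W5, and at 1.99%, 2.05%, 2.14%, 1.76% and 1.72% in K1 to K5. On this scale the groups did not overlap in either gene, though W4 and K1 nearly met in Cabp5, and the same held for 2.57% of all tested genes divided by the same sum (1.65% with wild type above). Without the division the groups overlapped in all 9 genes, where 3.48% of tested genes did not overlap (1.72% with wild type above). Such a ratio compares genes with each other and does not show which of them differed. Cabp5 and Neto1 are also the 2 genes of lowest p among the 9, so this separation adds no independent support for a difference.

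**Figure D4:**
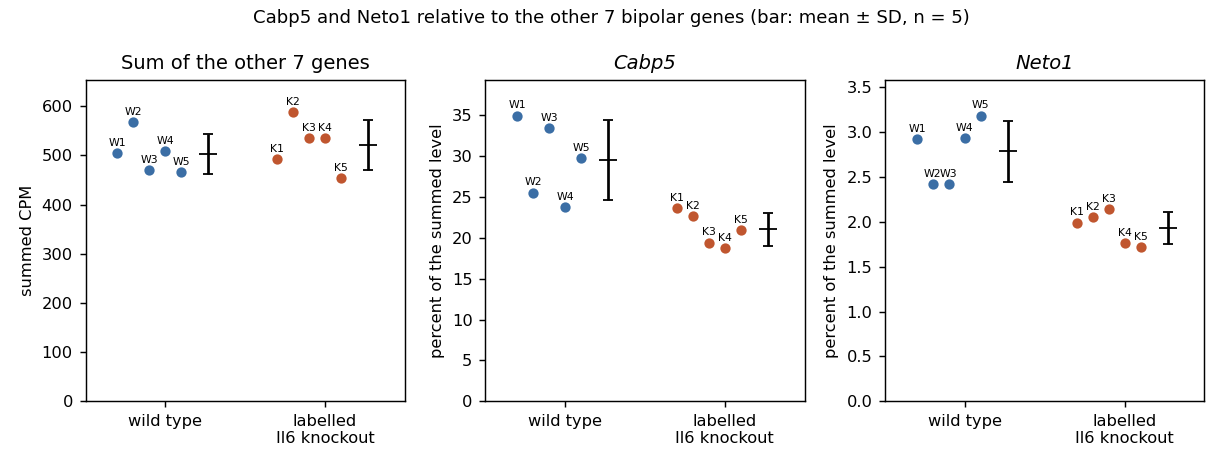
The left panel gives the summed CPM of the 7 bipolar genes other than Cabp5 and Neto1, and the other panels give Cabp5 and Neto1 as a percentage of that sum, by library. Points are libraries and bars mean ± SD (n = 5). The sums overlap between groups, and the percentages of all libraries labelled knockout lie under those of all wild-type libraries, with W4 at 23.7% and K1 at 23.6% the closest pair of Cabp5.

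Other bipolar genes, in 4 lists, were compared in the same fit. Of 50 tested genes 0 were called higher and 1 lower, 29 had a positive log2 fold change, and the median was 0.03, against 0.0018 for all tested genes. None of the 8 genes shared by bipolar cells or acting in their fate passed. Among these 8, 7 log2 fold changes were positive and 1 negative. An unadjusted edgeR p under 0.05 was found in 3 of the 8, against 13.8% of all tested genes. They were Prdm1 (0.28), Prdm8 (0.20) and Samsn1 (0.19 on the log2 scale), named after their values were seen. The homeobox gene Otx2 and the helix-loop-helix gene Neurod4 had 262.2 ± 18.5 and 221.3 ± 22.9 CPM over the wild-type libraries and 269.7 ± 17.9 and 226.5 ± 43.2 CPM over K1 to K5 (SD, n = 5). The other rod bipolar markers (0 of 5 called) were led by Prkca, the protein kinase C alpha gene used to stain these cells, at 364.6 ± 44.6 and 401.4 ± 58.8 CPM, with Rpa1 at 160.0 ± 14.6 and 153.5 ± 11.3 and the GABA receptor subunit gene Gabrr1 at 112.9 ± 16.7 and 128.6 ± 11.3 CPM. Of the 12 genes of mGluR6 signalling in ON bipolar cells 0 were called, with log2 fold changes from -0.15 to 0.12. Their most abundant members, the G-protein genes Gnb5, Gnao1 and Gnb3, differed by 0.11, 0.09 and -0.08.

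In the list of other cone bipolar subtype markers, 1 of 25 tested genes was called, against 2.03% of all tested genes. It was Syt2, a calcium sensor of transmitter release found in type 2 and type 6 cone bipolar cells, which stood at 49.1, 48.5, 49.6, 45.0 and 46.1 CPM in W1 to W5 and at 38.7, 38.1, 44.4, 34.3 and 35.98 CPM in K1 to K5. Every library labelled knockout lay under every wild-type library, which held for 1.72% of all tested genes. Syt2 fell by 0.32 on the log2 scale (SE 0.07, edgeR adjusted p = 0.0388). The call was lost without W1, W3, W5, K1, K2, K4 or K5 (adjusted p 0.0565 to 0.116), and without W5 and K5 together (0.137). Syt2 overlaps Ppp1r12b, which lies on the opposite strand and had 27006 reads against 15081 for Syt2. The sources used here do not give the strand setting of the counting, so reads of both could be mixed. Ppp1r12b had a log2 fold change of 0.10 (edgeR adjusted p = 0.650).

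Over the 25 tested genes of that list, 12 log2 fold changes were positive and 13 negative. The most abundant genes of the list did not pass. Serpini1, a neuronal serpin, had 98.0 ± 8.80 CPM over the wild-type libraries and 90.6 ± 6.38 CPM over K1 to K5, the protocadherin gene Pcdh10 at 77.3 ± 7.58 and 67.3 ± 7.62, and Kcnip3, a calcium-binding partner of potassium channels, at 57.4 ± 5.14 and 52.3 ± 3.59 CPM (SD, n = 5). Htr3a, a serotonin receptor channel subunit of type 5 cone bipolar cells, named after its values were seen, went the other way at 1.90 ± 0.673 and 3.14 ± 0.463 CPM (log2 fold change 0.73, edgeR adjusted p = 0.116), and DESeq2 and edgeR without W2 called it higher.

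The 5 kainate receptor genes beside Grik1 and Neto1 all had negative log2 fold changes under TMM, DESeq2 and upper-quartile scaling. Their medians were -0.19, -0.19 and -0.18. Of all 18965 tested genes, 9403 had a negative value in the main fit. The main test called 1 of the 5 lower, against 1.17% of all tested genes. Grik3, which encodes the subunit GluK3, stood at 19.6, 16.6, 13.7, 12.1 and 18.9 CPM in W1 to W5 and at 8.44, 8.07, 13.6, 8.22 and 8.95 CPM in K1 to K5. K3 lay among the lower wild-type libraries, and the other 4 lay under all of them. Grik3 fell by 0.77 on the log2 scale (SE 0.16, edgeR adjusted p = 0.0235), a call lost without W1, K2, K4 or K5 (adjusted p 0.0593 to 0.0791) and without W5 and K5 together (0.118). Grik5, Neto2 and Grik2 had 100.7 ± 11.3, 41.9 ± 7.37 and 25.1 ± 3.62 CPM over the wild-type libraries and 99.0 ± 11.5, 35.0 ± 2.62 and 24.0 ± 2.29 CPM over K1 to K5. Their log2 fold changes were -0.02 ± 0.09, -0.26 ± 0.10 and -0.06 ± 0.10 (SE). Those of Grik5 and Grik2 were smaller than their SEs, so their signs say little. Among other EF-hand genes of neurons 0 of 5 tested were called, and the most abundant, Calb2, Cabp1 and Calb1, differed by -0.14, 0.08 and -0.02.

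**Figure D5:**
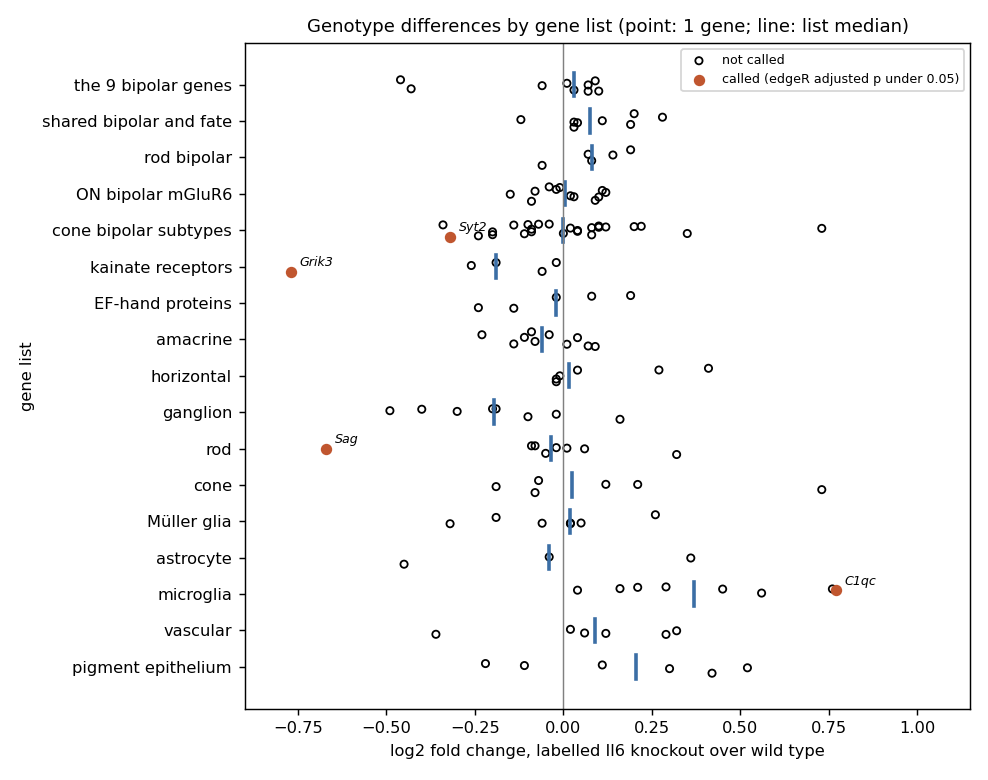
Log2 fold change (libraries labelled knockout over wild type) of each tested gene in the bipolar lists, the 2 lists of protein relatives and the marker lists of other retinal cells. Open circles did not pass, filled orange circles passed an edgeR adjusted p of 0.05, and blue lines are list medians. Most bipolar genes lie near 0, Syt2 and Grik3 are the called genes among bipolar genes and relatives, and Cabp5 and Neto1 stand to the left of the other 7 of the 9 genes.

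Markers of the other cells of the retina bear on genes such as Isl1, Neto1 and Grik1, which those cells can also express. Of 67 tested markers in 11 lists 1 was called higher, the complement gene C1qc of microglia (2.72 ± 0.676 to 4.62 ± 0.431 CPM, edgeR adjusted p = 0.0342), and 1 lower, the rod arrestin Sag (7682.3 ± 540.3 to 4818.6 ± 646.1 CPM, edgeR adjusted p = 0.00267). C1qc lost its call without any single library except W2 or K1. The summed level of the 10 amacrine markers ran from 1370.9 to 1582.8 CPM over the wild-type libraries and from 1315.0 to 1540.4 CPM over K1 to K5, with 0 called and a median log2 fold change of -0.06. The 8 ganglion cell markers summed to 598.4 to 858.2 and 611.0 to 785.4 CPM, with 0 called. Under TMM, DESeq2 and upper-quartile scaling 7 of them had negative log2 fold changes, with medians of -0.20, -0.20 and -0.19. The 6 horizontal cell markers summed to 316.7 to 330.3 and 283.8 to 367.5 CPM, with 0 called. All 8 microglia markers had positive log2 fold changes under these scalings, with sums of 22.3 to 41.1 and 34.9 to 40.3 CPM. The part of these cells in the levels of Cabp5 and Neto1 was not tested.

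The position of the genes and their likeness to others were described last. Within 1 Mb of Cabp5, 0 of 25 tested genes were called, and the single tested gene within 1 Mb of Neto1 was not called. Overlapping genes had few reads beside those of the 9 genes, at most 3.35% (Gm14343, over Bhlhe23). Cabp5 was compared with 13416 tested protein-coding genes whose mean level was at least 1 CPM. The measure was the mean absolute difference between log2 CPM profiles over the 10 libraries, each centred on its own mean. The closest profiles were those of Il1rapl1 (0.055), 2900026A02Rik (0.072) and Ccdc91 (0.095), against a median of 0.261 over these genes. Their levels in the wild-type libraries and in K1 to K5 were 4.75 ± 0.593 and 3.49 ± 0.600 CPM for Il1rapl1, 57.4 ± 9.34 and 44.5 ± 6.55 CPM for 2900026A02Rik, and 26.2 ± 1.59 and 21.3 ± 4.16 CPM for Ccdc91 (SD, n = 5). None of these 3 was called (edgeR adjusted p of 0.191, 0.143 and 0.241). Neto1, the nearest of the other 8 bipolar genes, stood at 0.176, at rank 517 in closeness to Cabp5.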

How the data were processed

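Total RNA of mouse retina was sequenced, and gene-level reads of 10 libraries were compared by the genotype label. The authors deposited raw counts, whole numbers of reads per gene, for 36115 genes, and the analysis starts from these. The submitters' processing notes name the build GRCm38.p5 and the tools STAR 2.5.3a, featureCounts 1.15.2, DESeq2 1.14, FastQC and bcl2fastq. The sources used here do not give how strand, reads with several matches and overlapping genes were handled. Further columns, per the file headers, hold the authors' comparison of knockout over control. Its deposited log2 fold changes, p-values and mark of significance are quoted as theirs, and its deposited mean of scaled counts, a signal averaged over libraries, was not used.

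The filterByExpr function of edgeR (minimum count 10, minimum total 15) left 18965 genes, all 9 bipolar genes among them. edgeR 4.0.16 fitted TMM-scaled counts with genotype as the only term, by its quasi-likelihood test with Benjamini-Hochberg adjustment. The test was first checked on simulated counts. That check set no requirement for differences as small as those of Cabp5 and Neto1, and its outcome is not given here. SEs were derived from the log2 fold change and the F statistic, and 95% intervals use the fit's degrees of freedom. Exon lengths come from GENCODE M21. Profiles used log2 CPM with a prior count of 2. Alternatives were DESeq2 1.42.0, limma-voom (limma 3.58.1), upper-quartile factors, other filters and libraries left out.

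The 9 genes, the 17 other gene lists, the tests and the rule for named genes were chosen with earlier results of these data known. The rule names all 9 genes, Il6, every listed gene that was called, otherwise the 3 most abundant genes of each bipolar list (1 of which is not reported here), which was applied to the kainate and EF-hand lists too, and the 3 genes with profiles closest to the member of lowest p. The search windows, motifs and ratios were chosen after the values were seen. The labels pair no libraries, and leaving out W5 and K5 together does not mean that they form a pair.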

Additional observations from a re-analysis of the deposited data

Results flagged for a closer look

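One value among the 18 groups of 5 libraries checked (9 genes in each genotype) lay far from the others of its group, where chance flags about 1 in 20 groups. Scgn, the secretagogin gene of cone bipolar cells, stood at 92.4 CPM in W2, while the other wild-type libraries stood between 72.3 and 78.0 CPM. The gap took 0.719 of the group's range, above the limit of 0.71 for 5 samples. W2 was also the highest library for Sebox and Car8.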

How the results depend on the processing

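The log2 fold changes of Cabp5 and Neto1 kept their negative sign in all 16 alternatives, and 6 and 3 of them gave an adjusted p under 0.05. Cabp5 passed with DESeq2 (-0.43), upper-quartile factors (-0.42) and no low-count filter (-0.43), and Neto1 with DESeq2 (-0.46) and no low-count filter (-0.46). The members called lower therefore numbered 2 with DESeq2, 1 with upper-quartile factors and 2 without a low-count filter, against 0 in the main test, and 0 to 1 when libraries were left out. Of all tested genes, 2.05% were called lower with DESeq2, 207 of 18965 with upper-quartile factors and 1.12% without a low-count filter. The main test called 1.17% lower, and fits with libraries left out called 140 to 289 of 19092 to 19325 tested genes lower. Leaving out libraries gave log2 fold changes from -0.51 to -0.36 for Cabp5, -0.53 to -0.36 for Neto1, -0.01 to 0.17 for Vsx1, -0.03 to 0.05 for Grik1, -0.15 to 0.01 for Bhlhe23 and -0.02 to 0.10 for Sebox. In those last 4 genes the sign turned in some fits (0.00 and 0.01 for Bhlhe23 without W2 and without K5), with no call. The cause of these changes was not tested.

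Across the genome the genes called higher were 314 with DESeq2 and 298 without a low-count filter, against 163, and those called lower 388 and 406, against 222. Leaving out libraries gave 71 to 253 higher and 140 to 289 lower, where the higher calls numbered 71, 84 and 93 without K4, K5 and K3 respectively and 253 without W2. Among other bipolar genes and relatives, DESeq2 called 1 higher, and leaving out libraries gave 0 to 1 higher and 0 to 2 lower. Among markers of other cells, DESeq2 called 3 higher and 2 lower and edgeR without a low-count filter 2 and 2, and leaving out libraries gave 0 to 3 higher and 1 to 2 lower. No paired analysis was possible because the labels carry no replicate numbers. Reads were fewest for Neto1, at 267 in K5, and the other 8 genes had at least 1038 reads in every library.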

Other observations

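Syt2, called lower, lies on chromosome 1 in a stretch where other genes were called in the opposite direction. Within 1 Mb of it 5 of 39 tested genes were called, all 5 higher in the libraries labelled knockout: Fmod, Gpr37l1, Lmod1, Rabif and Shisa4, named after their values were seen. Across all tested genes 2.03% were called. Around Grik3, on chromosome 4, 1 of 39 tested genes was called, Tekt2, which was higher.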
